A study of Canis lupus familiaris with 9 samples.

Results

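Canine CD4+ peripheral T cell lymphoma (PTCL) was compared here between Boxers and dogs of other breeds. The 6 lymphoma libraries, of 9 in the series, were chosen by their titles: 3 come from Boxers and 3 from dogs of other breeds. Per the labels, Boxer lymphomas 1, 2 and 3 came from a castrated male aged 6 years, a spayed female aged 8 and a castrated male aged 6. Other-breed lymphomas 1, 2 and 3 came from a spayed Cavalier King Charles Spaniel aged 3, a spayed Rhodesian Ridgeback aged 4 and a castrated male Collie aged 11. The remaining 3 libraries are CD4+ T cells sorted from intact female hounds aged 1 year, and their values stand beside the lymphomas for reference. The labels do not give the tissue of the lymphomas or any sorting of them, so fewer cells of a type and less RNA per cell cannot be told apart. The labels do not say that the 3 controls, or Boxer lymphomas 1 and 3, come from separate dogs, and p-values then cover the spread between these samples alone. The groups also differ in sex, with 2 males and 1 female among the Boxers and 1 male and 2 females among the other breeds, whose ages (3 to 11 years) span those of the Boxers (6 to 8). The 3 other breeds are 1 dog each.

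PTCL is a cancer of mature T cells, and Boxers are a breed known for a high frequency of T cell lymphoma. A CD4+ T cell recognises peptides on MHC class II molecules through its T cell receptor, whose CD3 chains pass the signal to kinases and adaptors inside the cell. Factors such as GATA3, LEF1, SATB1 and TOX set the state of the cell during thymic development and in helper responses. Small GTPases of the GIMAP family are abundant in resting lymphocytes and support their survival.

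Normalised read counts are the reads of a gene divided by a factor for the depth of the library. Values are given for libraries 1, 2 and 3 of a group in that order. The 6 lymphoma libraries held 13158356 to 18253154 reads. T cell genes were abundant in all of them: CD3E was at 14248, 18686 and 14556 normalised reads in Boxer lymphomas, 22222, 13794 and 17657 in other-breed ones and 19718, 21022 and 21357 in controls. The CD4+ label could not be checked on CD4 itself, since no feature was matched to that symbol. CD8A was low apart from other-breed lymphoma 1, at 5.95, 48.3 and 12.5 against 1089, 48.9 and 70.05. The first principal component of the 6 lymphomas (37.1% of the variance) did not follow breed group, since other-breed lymphomas 1 and 2 lay at 119.7 and 73.4 and other-breed lymphoma 3 at -60.3, beside the Boxers (-57.1 to -33.5). Stromal genes also set other-breed lymphomas 1 and 2 apart from the other 4. A score over 18 fibroblast and stroma genes, the mean log2 level relative to all 9 libraries, was 1.80 to 3.46 in the Boxers. It was -1.63, -1.64 and 3.74 in the other breeds, and the controls had -3.07 to -2.38.

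No gene passed the test between Boxer and other-breed lymphomas. Of 15112 genes tested with limma on log2(normalised reads + 1), 0 were higher and 0 were lower at a Benjamini-Hochberg adjusted p under 0.05 (0% of tested genes in each direction), and the smallest adjusted p was 0.182. At an unadjusted p under 0.05 there were 753 genes, 4.98% of those tested. edgeR's quasi-likelihood test on the recovered reads also called 0 genes in each direction, with 731 at an unadjusted p under 0.05 and a smallest adjusted p of 0.39. DESeq2's Wald test called 44 higher and 58 lower (0.296% and 0.39% of 14887 genes with an adjusted p). The median standard error of a log2 fold change was 0.43.

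**Figure D1:**
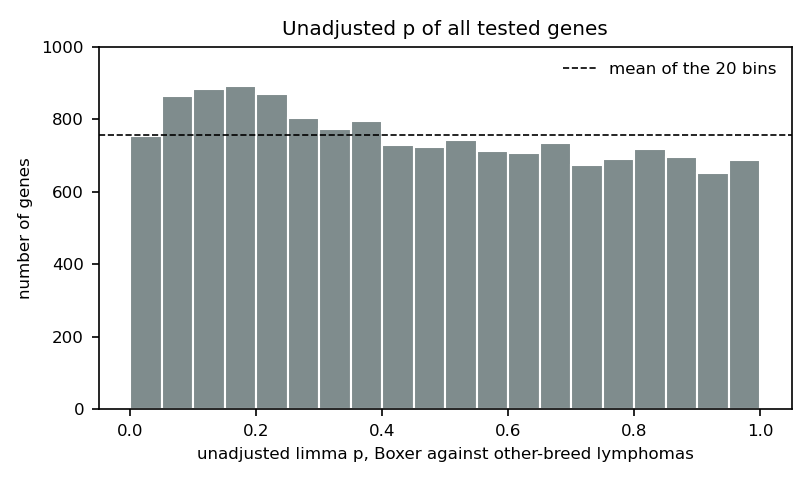
Unadjusted limma p-values of the 15112 tested genes (x axis, bins of 0.05) against the number of genes per bin (y axis), with the mean of the bins as a dashed line. The first bin holds 753 genes, fewer than the 865 of the second, and the fullest bin (0.15 to 0.2) holds 891.

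Genes whose 3 Boxer values all lay above or all below the 3 other-breed values are described from here on. There were 754 higher in Boxer lymphomas and 861 lower, 1615 in all, which is 4.99%, 5.7% and 10.7% of the tested genes. These genes were picked on their own values, so the values describe them and support nothing further. For the list shares given below, the background is the 10.7% of all tested genes. Without any 1 of the 6 libraries, fewer values had to separate and the counts were 1404 to 2114 higher and 1467 to 1644 lower. Of the 1615 genes, 1166 had a symbol. The gap is the distance on the log2 scale between the nearest values of the groups, and its median was 0.17. It reached 1 in 91 genes, 2 in 29 and 3 in 12. At the edge of the rule, TMEM219 was just inside, as lower, with 384.204 in Boxer lymphoma 3 and 384.207 in other-breed lymphoma 3, and ZC3H14 just outside with 2275.12 in Boxer lymphoma 1 and 2275.52 in other-breed lymphoma 3.

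Among genes higher in Boxer lymphomas, the widest gap with a symbol was that of ROS1 (ENSCAFG00000000923), a receptor tyrosine kinase gene known as a fusion oncogene in carcinomas. It was at 89.2, 189 and 158 in Boxer lymphomas, 0, 3.94 and 0 in other-breed ones and 10.9, 7.43 and 13.9 in controls, with 5 reads in all in the other-breed libraries. Every Boxer library thus exceeded every other-breed and control library (log2 fold change 6.36 ± 0.87 SE, limma adjusted p = 0.409). FLNC, the actin crosslinker filamin C of muscle, was at 119, 217 and 63.5 in Boxer lymphomas, 2.35, 3.15 and 11.7 in other-breed ones and 6.82, 11.6 and 11.1 in controls. GALNTL6, of the family of enzymes that start O-glycosylation, was at 827, 32.2 and 35.4 in Boxer lymphomas, 2.35, 2.37 and 2.12 in other-breed ones and 2.73, 1.65 and 2.78 in controls, so its mean rested on Boxer lymphoma 1.

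Further wide gaps belonged to genes of very different function. FBN3, a fibrillin of extracellular microfibrils, was at 271, 228 and 151 in Boxer lymphomas, 12.9, 6.31 and 33.96 in other-breed ones and 2.73, 0 and 0 in controls. TNS4, a tensin that binds integrin tails, was at 80.7, 122 and 33.3 in Boxer and 1.18, 3.94 and 8.49 in other-breed lymphomas. TSPAN2, a tetraspanin of the cell surface, was at 34.8, 97.6 and 129 in Boxer and 7.06, 0 and 3.18 in other-breed lymphomas. The controls had at most 3.30 normalised reads of TNS4 and 14.9 to 17.7 of TSPAN2. For TSPAN2 the controls were thus above the other-breed lymphomas. APOA1, the main protein of high-density lipoprotein, was at 28.04, 73.9 and 48.9 in Boxer and 1.18, 0.789 and 7.43 in other-breed lymphomas. TCAF1, a partner of TRPM ion channels, was at 109, 289 and 66.6 in Boxer and 4.71, 2.37 and 23.3 in other-breed lymphomas. DCBLD1, a membrane protein gene, was at 88.4, 111 and 157 in Boxer and 0, 3.94 and 31.8 in other-breed lymphomas. In both, other-breed lymphoma 3 was the nearest to the Boxers.

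ETV5 (ENSCAFG00000013420), an ETS transcription factor induced by growth factor and ERK signalling, was at 1005, 469 and 148 in Boxer lymphomas, 35.3, 55.2 and 49.9 in other-breed ones and 20.5, 0 and 0.926 in controls. CDR2L, related to an antigen of paraneoplastic cerebellar degeneration, was at 370.4, 638 and 334 in Boxer lymphomas, 50.6, 65.5 and 123 in other-breed ones and 51.9, 68.5 and 86.1 in controls, where the other-breed range overlapped that of the controls. Smaller but tighter differences gave some of the lowest p-values. MYB (ENSCAFG00000000230), a transcription factor of blood progenitors and thymocytes, was at 7487, 6327 and 4863 in Boxer lymphomas, 2435, 1281 and 1875 in other-breed ones and 651, 303 and 305 in controls (log2 fold change 1.77 ± 0.29 SE, limma adjusted p = 0.510). Both lymphoma groups were above the controls, and the Boxer group further. ESYT1, which tethers the endoplasmic reticulum to the plasma membrane, was at 2368, 3412 and 2169 in Boxer lymphomas, 863, 926 and 1057 in other-breed ones and 584, 869 and 825 in controls (1.46 ± 0.23 SE). MEX3B, an RNA-binding protein gene, was at 1413, 1804 and 1196 in Boxer lymphomas, 563, 657 and 568 in other-breed ones and 21.8, 15.7 and 11.1 in controls.

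Among genes lower in Boxer lymphomas, PSMB11 (ENSCAFG00000011311) had the widest gap with a symbol. It encodes the catalytic subunit of the thymoproteasome, the proteasome of cortical thymic epithelium, and was at 0.850, 11.4 and 36.4 in Boxer lymphomas, 292, 207 and 315 in other-breed ones and 0, 0 and 5.56 in controls. All 3 other-breed lymphomas thus had 207 normalised reads or more, and no Boxer more than 36.4. RASGRF2, an exchange factor for Ras and Rac, was at 5.95, 15.2 and 26.03 in Boxer lymphomas, 127, 625 and 244 in other-breed ones and 5.46, 0 and 1.85 in controls. FAM155B, a subunit of the NALCN sodium leak channel, was at 4.25, 7.58 and 36.4 in Boxer lymphomas, 381, 181 and 180.4 in other-breed ones and 58.7, 78.4 and 86.1 in controls, with the controls between the lymphoma groups. NFIL3 (ENSCAFG00000002169), a bZIP repressor of the circadian clock and of innate lymphoid and helper cell development, was at 54.4, 41.7 and 19.8 in Boxer lymphomas, 231, 429.8 and 516 in other-breed ones and 76.4, 68.5 and 29.6 in controls (log2 fold change -3.35 ± 0.54 SE, limma adjusted p = 0.496). Boxer values overlapped the controls, and other-breed values were above both.

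PRKAR1B, a regulatory subunit of protein kinase A, was at 47.6, 19.9 and 53.1 in Boxer lymphomas, 911, 186 and 331 in other-breed ones and 39.6, 46.2 and 23.2 in controls. FASLG, the death ligand of the Fas receptor, was at 2.55, 15.2 and 9.37 in Boxer lymphomas, 75.3, 54.4 and 291 in other-breed ones and 76.4, 56.1 and 41.7 in controls. It was thus lower in every Boxer library than in any other library. Of 20 tested BCL2 family and apoptosis genes, 2 did not overlap and both were higher in Boxers (10%, near the 10.7% of all genes). In this list 8 of 20 were fitted above 0, with a median log2 fold change of -0.06. CASP8, the caspase that death receptors activate, was at 1152, 1587 and 1399 in Boxer lymphomas, 932, 940.00 and 827 in other-breed ones and 2209.8, 1763 and 1709 in controls, every lymphoma below every control. APAF1, the core of the apoptosome, was at 1904, 2324 and 1587 in Boxer and 1437, 1477 and 1263 in other-breed lymphomas.

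The remaining wide gaps in this direction included genes better known from other tissues. TBX19, a T-box factor of pituitary corticotrophs, was at 1.70, 73.00 and 61.4 in Boxer lymphomas, 2969.7, 164 and 1094 in other-breed ones and 75.1, 89.2 and 65.8 in controls. HTR1A, a serotonin receptor, was at 53.5, 23.7 and 0 in Boxer lymphomas, 368, 143 and 611 in other-breed ones and 0, 0 and 0 in controls. C8B, a subunit of the complement attack complex, was at 0, 14.2 and 4.16 in Boxer lymphomas, 268, 50.5 and 58.4 in other-breed ones and 0, 0 and 0 in controls. The controls held 0 reads of both. CALY, a vesicle protein of neurons, was at 6.80, 1.90 and 1.04 in Boxer and 371, 111 and 18.04 in other-breed lymphomas, with controls at 2.73, 2.48 and 1.85. KLK11, a secreted serine protease, was at 47.6, 24.6 and 53.1 in Boxer and 241, 123 and 353 in other-breed lymphomas. MUM1, a PWWP-domain protein gene and not the IRF4 protein of the same name in pathology, was at 30.6, 95.8 and 71.8 in Boxer lymphomas, 326, 242 and 401 in other-breed ones and 375, 523 and 569.5 in controls, so the other-breed values were nearer to the controls.

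**Figure D2:**
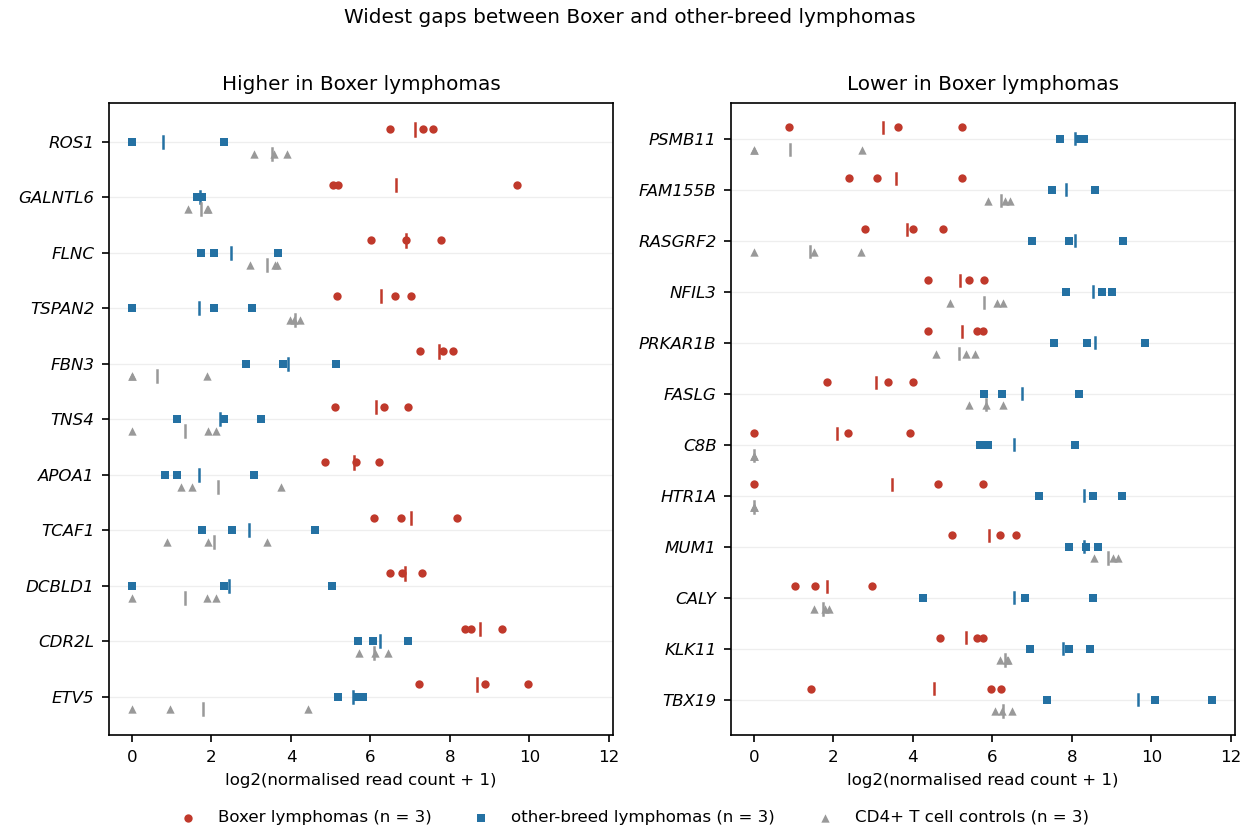
Genes with a symbol and the widest gaps in each direction, 11 higher and 12 lower in Boxers (rows), each point 1 library on a log2(normalised read count + 1) axis and each bar the mean of 3 libraries. Boxer and other-breed points do not overlap in any row, by the choice of the genes, and the controls sit with either group, between them or beyond both.

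Lower p-values in this direction also belonged to genes with modest gaps. NCOA7, a gene of the oxidation resistance family, was at 739.97, 735 and 808 in Boxer lymphomas, 2643, 2128 and 1510.3 in other-breed ones and 1002, 1036 and 958 in controls (-1.42 ± 0.24 SE). FBLN5, an elastic fibre protein gene, was at 285, 360.3 and 458 in Boxer lymphomas, 1012, 772 and 1352 in other-breed ones and 16.4, 4.13 and 12.97 in controls. Every lymphoma was above the controls. ANKRD27, which steers endosomal cargo, was at 386, 359 and 309 in Boxer lymphomas, 953, 1049 and 604 in other-breed ones and 1104, 899 and 893 in controls, with the other-breed lymphomas near the controls.

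The T cell receptor genes for the most part overlapped between the groups. Of 25 tested genes of the receptor and its proximal signalling, 1 was higher in Boxers and 1 lower (8%, against 10.7% over all genes), with a median log2 fold change of -0.16 against 0.02 over all genes. The exceptions were THEMIS, an adaptor that tunes receptor signals in thymocytes, at 6917, 5696 and 5275 in Boxer lymphomas, 3332, 3684 and 2824 in other-breed ones and 3194, 2888 and 2924 in controls, and PTPN22. For THEMIS the Boxers were above the controls, and the other breeds lay around them. PTPN22, a phosphatase that restrains the receptor, was at 395, 1157 and 579 in Boxer lymphomas, 2738, 1334 and 1461 in other-breed ones and 1314, 1134 and 1022 in controls. CD5 overlapped, since Boxer lymphoma 2 had 265 normalised reads and the other 5 lymphomas 3546 to 4320.

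Of 19 genes of naive and resting T cells 2 were higher and 3 lower without overlap (26.3%). LEF1, a Wnt-responsive factor of naive T cells, was at 24998, 37870.1 and 10364 in Boxer lymphomas, 6846, 5072 and 7558 in other-breed ones and 21376, 21999.7 and 18375 in controls. SATB1, a chromatin organiser recurrently mutated in canine T cell lymphoma, was at 14307, 25323 and 15434 in Boxer lymphomas, 9619, 13942 and 11315 in other-breed ones and 10211, 10281 and 9371 in controls, with Boxer lymphoma 1 and other-breed lymphoma 2 close together. The lower members were FOXO1, which maintains quiescence (435, 508 and 395 in Boxer and 561, 681 and 664 in other-breed lymphomas), GIMAP4 and GIMAP7. Over the list of genes recurrently mutated in canine or human T cell lymphoma, 2 of 28 did not overlap (7.14%), SATB1 among them.

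The GIMAP GTPases were all on the lower side in Boxers. All 6 tested members had fitted log2 fold changes below 0 (median -1.30), and 3 did not overlap (50%, against 10.7% over all genes). GIMAP4 (ENSCAFG00000004579) was at 128, 272 and 301 in Boxer lymphomas, 2634, 541 and 1755 in other-breed ones and 4138, 3309.8 and 3266 in controls (log2 fold change -2.63 ± 0.62 SE, limma adjusted p = 0.881). GIMAP7 was at 56.9, 163 and 99.96 in Boxer lymphomas, 1164, 209.8 and 668 in other-breed ones and 2949.6, 2871 and 2938 in controls. GIMAP1 was at 28.9, 84.4 and 57.3 in Boxer lymphomas, 303, 107 and 137 in other-breed ones and 355, 485 and 807 in controls. In each of these 3 genes every lymphoma was below every control, and the Boxers were the lowest. Neighbouring GIMAP genes are alike in sequence, and reads can be shared between them.

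Helper subset, checkpoint and chemokine genes overlapped for the most part. GATA3, the regulator of type 2 helper cells, was the 1 of 16 tested helper genes without overlap (6.25%), at 9489.6, 10796 and 10912 in Boxer lymphomas, 8092, 5011 and 8269.99 in other-breed ones and 1939.5, 2315 and 2146 in controls. TOX, a chromatin factor of thymocyte development and T cell exhaustion, was at 4906, 3825 and 3048 in Boxer lymphomas, 1250.04, 1875 and 2010.2 in other-breed ones and 4757, 3603 and 3929 in controls, so the Boxers overlapped the controls and the other-breed lymphomas were lower. CD96, an adhesion receptor, was at 9270.4, 3805 and 3256 in Boxer and 3162, 1938 and 2312 in other-breed lymphomas. CD160, a receptor of cytotoxic cells, was at 12.7, 17.1 and 18.7 in Boxer lymphomas, 122, 37.9 and 523 in other-breed ones and 47.8, 33.8 and 32.4 in controls. These 3 were the checkpoint genes without overlap, of 16 (18.8%). CXCR3, the chemokine receptor of type 1 helper cells, was at 94.3, 347 and 133 in Boxer lymphomas, 400.2, 742 and 421 in other-breed ones and 171, 186 and 133 in controls, 1 of 34 chemokine and homing genes (2.94%). CCR4, CCR9, FOXP3, TBX21, IL2RA, PDCD1 and ITGAE overlapped. IL2RA was at 96.00, 135 and 124 in Boxers and 128, 73.3 and 1199 in the other breeds, where other-breed lymphoma 3 stood apart.

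Of the 14 T cell receptor segment genes with a symbol 3 were tested, and TRBV3-1 was lower in Boxers at 12.7, 15.2 and 26.03 in Boxer lymphomas, 98.9, 489 and 48.8 in other-breed ones and 1036, 1196 and 1399 in controls. The gene encodes a variable segment of the receptor beta chain, and every lymphoma was below every control. DAB1, a reelin adaptor almost silent in normal CD4+ cells, was at 233, 4515 and 1855 in Boxer lymphomas, 6068, 11835 and 7429 in other-breed ones and 12.3, 0 and 0.926 in controls. Every lymphoma was above the controls, and the Boxers were below the other breeds. Of the 19 key genes of T cell lymphoma with a value, 3 were higher without overlap, GATA3 and SATB1 among them, 1 was lower (DAB1) and 15 overlapped.

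**Figure D3:**
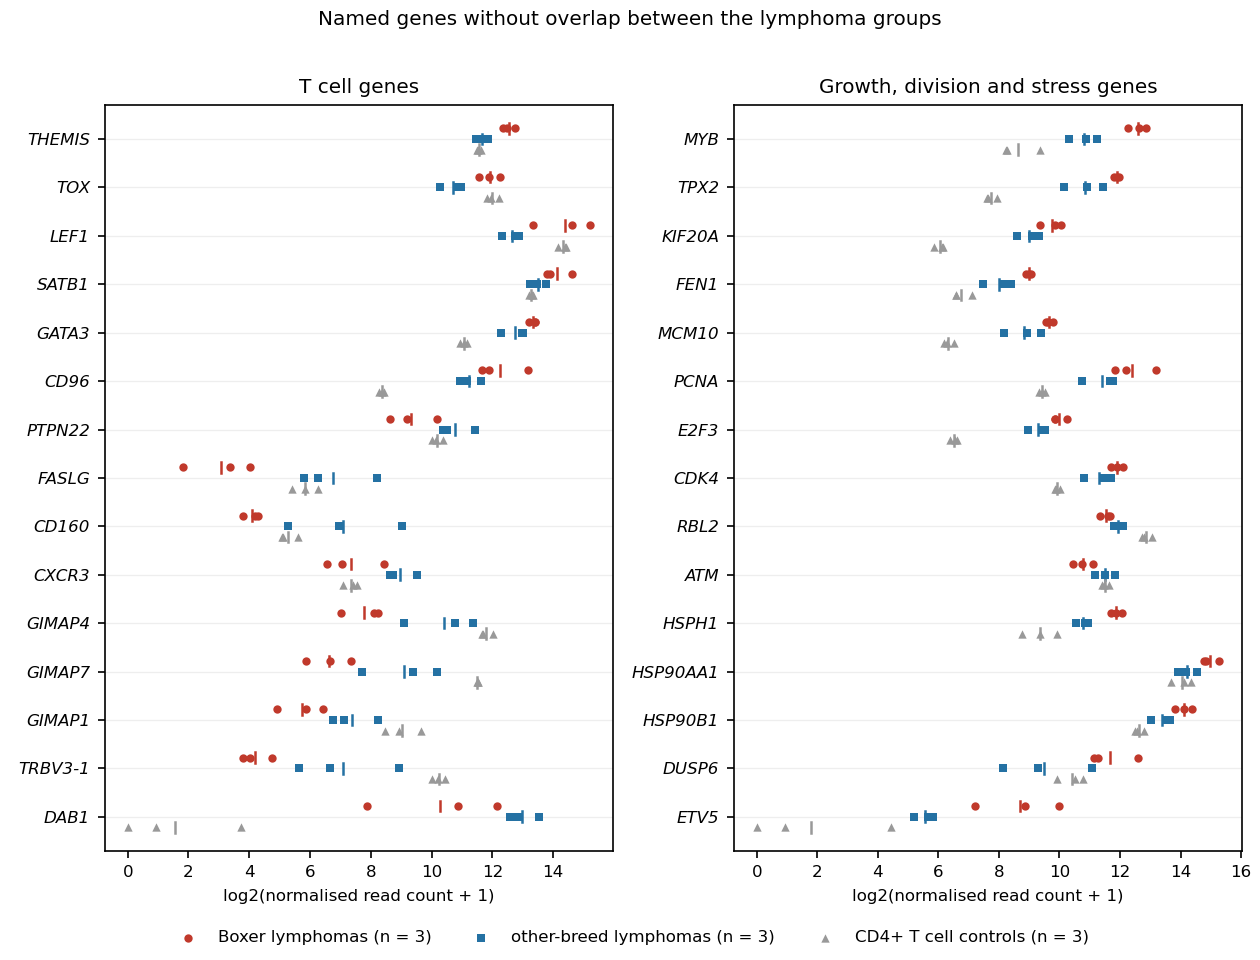
Values of 30 named genes without overlap, T cell genes on the left and genes of growth, division and stress on the right, on a log2(normalised read count + 1) axis, with 1 point per library and a bar at the mean of 3. For SATB1 and CDK4 the nearest Boxer and other-breed points nearly touch, while FASLG, GIMAP4, MYB and ETV5 show wider gaps.

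Genes of cell division without overlap were on the higher side in Boxer lymphomas, by small amounts. Of 30 DNA replication genes 7 were higher without overlap and 0 lower (23.3%, against 10.7% over all genes). In all, 25 were fitted above 0, with a median log2 fold change of 0.30. Replication scores overlapped, at 0.43, 0.88 and 0.85 in Boxers and 0.74, -0.0029 and 0.46 in other breeds. FEN1, the nuclease that trims Okazaki fragments, was at 479, 538 and 506 in Boxer lymphomas, 334, 176 and 288 in other-breed ones and 95.5, 94.9 and 137 in controls. MCM10, which loads the replication polymerase, was at 787, 744 and 881 in Boxer and 677, 287 and 490.3 in other-breed lymphomas. PCNA, the polymerase clamp, was at 4672, 9329.6 and 3681 in Boxer and 3519, 1706 and 3256 in other-breed lymphomas. ORC6, of the origin recognition complex, was at 542, 663 and 568 in Boxer and 484, 343 and 394 in other-breed lymphomas. In all 4 genes other-breed lymphoma 2 was the lowest lymphoma.

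Of 28 mitosis genes 4 were higher and 0 lower (14.3%), with 27 fitted above 0 and a median of 0.66, against 52% of all tested genes fitted above 0. TPX2, which targets Aurora A to the spindle, was at 3544, 4014 and 3857 in Boxer lymphomas, 2767, 1122 and 1927 in other-breed ones and 242, 201 and 194 in controls (1.06 ± 0.33 SE). The mitotic kinesin KIF20A was at 1062, 919 and 660.1 in Boxer and 634, 386 and 547 in other-breed lymphomas. The kinase AURKA was at 846, 853 and 804 in Boxer and 687, 291 and 554 in other-breed lymphomas, so in both genes other-breed lymphoma 2 was again the lowest. The checkpoint kinase TTK was at 463, 777 and 577 in Boxer and 412, 389.6 and 384 in other-breed lymphomas. The proliferation marker MKI67 overlapped, at 3917, 5856 and 5102 against 5012, 1557 and 3811. The kinesins KIF22 (1180.04, 1147 and 1509 in Boxer and 939, 595 and 757 in other-breed lymphomas) and KIF15 (2681, 2919.9 and 3074 in Boxer and 2324, 1285 and 1735 in other-breed lymphomas) were also higher, and KIFC2 was lower (181, 152 and 165 in Boxer and 188, 326 and 327 in other-breed lymphomas). In all, 3 of 34 kinesins were higher and 1 lower without overlap (11.8%, near the 10.7% of all genes). Other-breed lymphoma 2 had the lowest mitosis score of the lymphomas, 0.11, against 1.10 in other-breed lymphoma 1 and 0.77 in other-breed lymphoma 3. Boxer scores were 0.82 to 1.65 and overlapped these. With library totals as the scale, 6 mitosis genes and 6 replication genes were higher and 0 lower.

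Regulators of the G1 phase and of the DNA damage response showed a like share. Of 17 G1 genes 3 were higher and 1 lower (23.5%). The transcription factor E2F3 was at 930.3, 1226 and 925 in Boxer lymphomas, 685, 735 and 498 in other-breed ones and 92.8, 97.4 and 83.3 in controls. The kinase CDK4, which cyclin D activates, was at 3349.8, 3824 and 4389 in Boxer and 3331, 1785 and 2815 in other-breed lymphomas. The pocket protein RBL1 was at 1420.5, 1667 and 1406 in Boxer and 1305, 959 and 788 in other-breed lymphomas. RBL2, the pocket protein of resting cells, was lower at 2599.7, 3095 and 3225 in Boxer lymphomas, 4415, 3531 and 3834 in other-breed ones and 8424, 6777 and 7065 in controls. Of 21 p53 and damage response genes 4 were higher and 1 lower (23.8%). Under library total scaling 3 were higher and 0 lower, while TMM scaling gave 4 and 1. The checkpoint kinases CHEK1 (703, 541 and 781 in Boxer and 524, 270.5 and 443 in other-breed lymphomas) and CHEK2 (641, 779 and 814 in Boxer and 557, 445 and 524 in other-breed lymphomas) and the repair gene BRCA2 were higher. ATM, the kinase that senses double-strand breaks, was lower at 1706, 1398 and 2207 in Boxer lymphomas, 3624, 2922 and 2296 in other-breed ones and 3218, 2845 and 2683 in controls.

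Chaperone and stress genes held the largest share of any list with at least 13 tested members. Of 21 genes 6 were higher and 0 lower (28.6%, against 10.7% over all genes). In all, 15 were fitted above 0, with a median log2 fold change of 0.22. Scores over the list overlapped, at 0.25, 0.35 and 0.02 in Boxers and -0.10, -0.41 and 0.23 in other breeds. HSPH1 (ENSCAFG00000006538), a nucleotide exchange factor of HSP70, was at 4277, 3312 and 3705 in Boxer lymphomas, 1959.8, 1481 and 1846 in other-breed ones and 661, 960.2 and 431 in controls (log2 fold change 1.10 ± 0.20 SE, limma adjusted p = 0.613). HSP90AA1, the inducible cytosolic HSP90, was at 39419, 29099.9 and 28345 in Boxer and 18478, 15330.3 and 23886 in other-breed lymphomas. HSP90B1, its relative in the endoplasmic reticulum, was at 14479.9, 21413 and 17652 in Boxer and 11753, 8416 and 12749 in other-breed lymphomas. The co-chaperone DNAJB1 was at 1212, 731 and 678 in Boxer and 413, 665 and 475 in other-breed lymphomas. Controls overlapped both lymphoma groups for DNAJB1, at 945, 1877 and 455. Under either other scaling 5 members were higher and 1 was lower. In the list of 24 MYC target and ribosome biogenesis genes, which also counts the transcription factor MYB, 3 were higher and 1 lower (16.7%). They were MYB, ODC1 of polyamine synthesis (4809, 7452 and 5404 in Boxer and 4174, 2348 and 3053 in other-breed lymphomas), NOP56 of ribosomal RNA processing (3708, 4806 and 3414 in Boxer and 3306, 2413 and 2360.4 in other-breed lymphomas) and, lower, POLR1B of RNA polymerase I (296, 710.1 and 732 in Boxer and 1388, 779.9 and 1422 in other-breed lymphomas). MYC itself overlapped, at 1853, 2122 and 1992 against 2723, 2334 and 1831.

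Receptor tyrosine kinases had 4 of 30 members higher and 1 lower (16.7%, against 10.7% over all genes). Of the 30, 25 were fitted above 0, with a median log2 fold change of 1.74. The score over the 30 genes was 1.06 to 2.06 in Boxers and -1.13, -0.55 and 1.60 in other breeds. Other-breed lymphoma 3 thus lay within the Boxer range. Beside ROS1, TYRO3 of the TAM family was at 583, 1148 and 389 in Boxer lymphomas, 306, 118 and 179 in other-breed ones and 156, 267 and 264 in controls. The neurotrophin receptor NTRK2 was at 3450.1, 26.5 and 56.2 in Boxer and 4.71, 0.789 and 26.5 in other-breed lymphomas. Its separation rested on 26.54 against 26.53 normalised reads in Boxer lymphoma 2 and other-breed lymphoma 3. ALK, a receptor known from fusions in human anaplastic lymphoma, was lower at 0, 4.74 and 24.99 in Boxer lymphomas, 72.98, 26.8 and 57.3 in other-breed ones and 0, 0 and 0.926 in controls.

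Of 25 MAPK pathway and phosphatase genes 2 were higher and 1 lower (12%, near the 10.7% of all genes), with a median log2 fold change of 0.10. DUSP6, a phosphatase of ERK, was at 2451, 6117 and 2257 in Boxer lymphomas, 282, 628 and 2144 in other-breed ones and 1763, 1455 and 971 in controls. SPRY1, an inhibitor of receptor signalling, was at 230.2, 308 and 131 in Boxer lymphomas, 48.3, 33.9 and 119.9 in other-breed ones and 73.7, 73.5 and 69.5 in controls. In both genes other-breed lymphoma 3 was close to the lowest Boxer. MAPK9, a JNK kinase, was lower at 1058, 809 and 668 in Boxer and 1442, 1388 and 1249 in other-breed lymphomas. The nuclear receptors NR4A2 (279.5, 349 and 298 in Boxer lymphomas, 91.8, 161 and 134 in other-breed ones and 1398, 1613 and 397 in controls) and NR4A1, both immediate early genes, were the 2 of 21 immediate early and AP-1 genes without overlap (9.52%). Every lymphoma was below every control for NR4A2.

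Other signalling lists held few genes without overlap. In the TGF-beta and BMP list 2 were higher and 2 lower of 25 (16%): SMAD3 and BMP6 higher, ACVR2A (288, 276 and 192 in Boxer and 684, 479 and 370.4 in other-breed lymphomas) and TGFBR2 lower. In the PI3K, AKT and mTOR list 1 was higher, PIK3CA, and 2 lower, FOXO1 and PHLPP1, of 27 (11.1%). PHLPP1, a phosphatase of AKT, was at 98.5, 126 and 193 in Boxer lymphomas, 335, 339.9 and 239 in other-breed ones and 109, 86.7 and 63.9 in controls. In the NF-kB and TNF list 3 of 27 were lower (11.1%), with RELA at 626, 753 and 684 in Boxer and 892, 762 and 985 in other-breed lymphomas. Cytokine receptor and JAK-STAT genes had 1 lower of 24, IFNGR1 (4.17%). Interferon response genes had 2 lower of 23, IFI35 and GBP5 (8.7%), and Notch, Wnt and Hedgehog genes 1 higher of 19, GLI2 (5.26%). No tested gene of MHC class II (13), MHC class I (16) or sterol and fatty acid metabolism (25) separated the groups.

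Of 18 respiratory chain genes 3 were lower and 0 higher without overlap (16.7%), while 8 of the 18 were fitted above 0 and the median log2 fold change was -0.03. Under library total scaling 2 were lower. UQCRFS1, the Rieske protein of complex III, was at 814, 631 and 668 in Boxer lymphomas, 1009.9, 946 and 1043 in other-breed ones and 625, 467 and 519 in controls, UQCRC1 of the same complex at 1372, 1456 and 1541 in Boxer and 1719, 1943 and 1665 in other-breed lymphomas and the ATP synthase subunit ATP5A1 at 7448, 8281 and 8349 in Boxer and 10198, 10235 and 8649 in other-breed lymphomas. Of 22 glycolysis and hypoxia genes 2 were lower (9.09%), GPI (3965, 2501 and 3163 in Boxer and 6047, 4094 and 7867 in other-breed lymphomas) and HK3. Chromatin regulators had WHSC1, a histone methyltransferase gene, higher at 3546, 3564 and 3697 in Boxer and 1562, 2164 and 3057 in other-breed lymphomas and SMARCA2, an ATPase of SWI/SNF, lower at 2335, 2866 and 2586 in Boxer lymphomas, 3881, 4622 and 3614 in other-breed ones and 3474, 3463 and 3580.2 in controls, 2 of 32 (6.25%). Of 10 recombination and thymocyte genes THEMIS was higher and CD8A lower, so 2 of 10 did not overlap (20%). Of 13 drug transport and detoxification genes 11 were fitted above 0 (median log2 fold change 1.27, or 0.80 over 12 genes under library total scaling). Scores over this list were 0.97, 0.52 and 0.96 in Boxers and -1.05, -0.41 and 0.85 in other breeds, with other-breed lymphoma 3 within the Boxer range. The 1 without overlap, GCLC of glutathione synthesis, was lower at 468, 490.1 and 415 in Boxer and 536, 507 and 491 in other-breed lymphomas, and it overlapped under both other scalings. SOX8 was the 1 of 15 developmental factors (6.67%), at 2316, 219 and 68.7 in Boxer and 5.89, 43.4 and 29.7 in other-breed lymphomas, with its mean set by Boxer lymphoma 1.

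Lists of markers of other cell types differed in how many members separated the groups. For the 18 fibroblast and stroma genes the median log2 fold change was 2.65, and 1 did not overlap (5.56%): MMP2, at 273, 173 and 629 in Boxer lymphomas, 9.42, 39.4 and 131 in other-breed ones and 0, 0 and 0 in controls. Summed over the 18 genes found, normalised stromal reads ranged from 5835 to 24263 in Boxers, 1826 to 17914 in other breeds and 2900.4 to 3816 in controls. Of 15 endothelial genes 0 separated the groups, though 14 were fitted above 0 (median log2 fold change 1.80). Endothelial scores were 1.34, 2.01 and 2.79 in Boxers and -1.67, -1.70 and 3.26 in other breeds. Other-breed lymphoma 3 thus had the highest endothelial score. Of 18 B and plasma cell genes 0 separated the groups, and 15 were fitted above 0 (median 0.93). Scores over the list overlapped, at 0.29, 0.88 and -0.40 in Boxers and 0.07, -1.41 and 0.24 in other breeds. The B cell gene MS4A1 went the other way and overlapped, at 251, 302 and 121 in Boxer and 5123, 127 and 1535 in other-breed lymphomas. Of 15 macrophage genes 2 were higher (13.3%, against 10.7% over all genes), the complement gene C1QC (206, 194 and 166 in Boxer lymphomas, 36.5, 66.2 and 99.8 in other-breed ones and 9.55, 13.2 and 3.70 in controls) and CD5L. In all, 13 of the 15 macrophage genes were fitted above 0 (median log2 fold change 1.47). Summed over the 17 macrophage genes found, the normalised reads were 6338 to 13511 in Boxers, 1043 to 21650.4 in other breeds and 172 to 240.2 in controls. No stromal or macrophage marker was at 0 in all 3 libraries of either lymphoma group, while LUM, MMP2, POSTN and VSIG4 were at 0 in all controls. The part of these cells in the differences above was not tested.

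Neutrophil genes had the highest share of the marker lists with at least 7 tested members, at low read numbers. Of the 7 tested, 3 were lower without overlap (42.9%, against 10.7% over all genes) and 2 were fitted above 0. The median log2 fold change was -1.76. S100A12, an alarmin of neutrophils, was at 11.9, 9.48 and 29.2 in Boxer lymphomas, 69.4, 82.8 and 55.2 in other-breed ones and 0, 1.65 and 0.926 in controls. S100A8, its calprotectin relative, was at 9.35, 9.48 and 37.5 in Boxer and 52.97, 65.5 and 44.6 in other-breed lymphomas, and the growth factor receptor CSF3R at 41.6, 15.2 and 65.6 in Boxer and 71.8, 154 and 217 in other-breed lymphomas. Summed over the 9 genes found, the normalised reads were 201 to 892 in Boxers, 422 to 668 in other breeds and 23.9 to 39.8 in controls. The lymphoma sums thus overlapped. The score over the 7 tested genes did not overlap, at 0.59, -0.13 and 1.27 in Boxers and 1.65, 1.38 and 2.17 in other breeds. Cytotoxic and natural killer genes had 1 of 16, FASLG (6.25%). The dendritic cell list had 1 of 13 (7.69%), SIGLEC1, at 549, 499.6 and 536 in Boxer and 368, 185 and 298 in other-breed lymphomas. With at most 4 tested members each, the lists for erythroid cells and platelets (TUBB1), muscle and fat (MYH11), epithelium, mast cells and eosinophils, and nerve and glia held 1, 1, 0, 0 and 0 genes without overlap. MYH11, the smooth muscle myosin, was at 1660.04, 966 and 1127 in Boxer lymphomas, 745, 508 and 838 in other-breed ones and 292, 249 and 332 in controls.

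**Figure D4:**
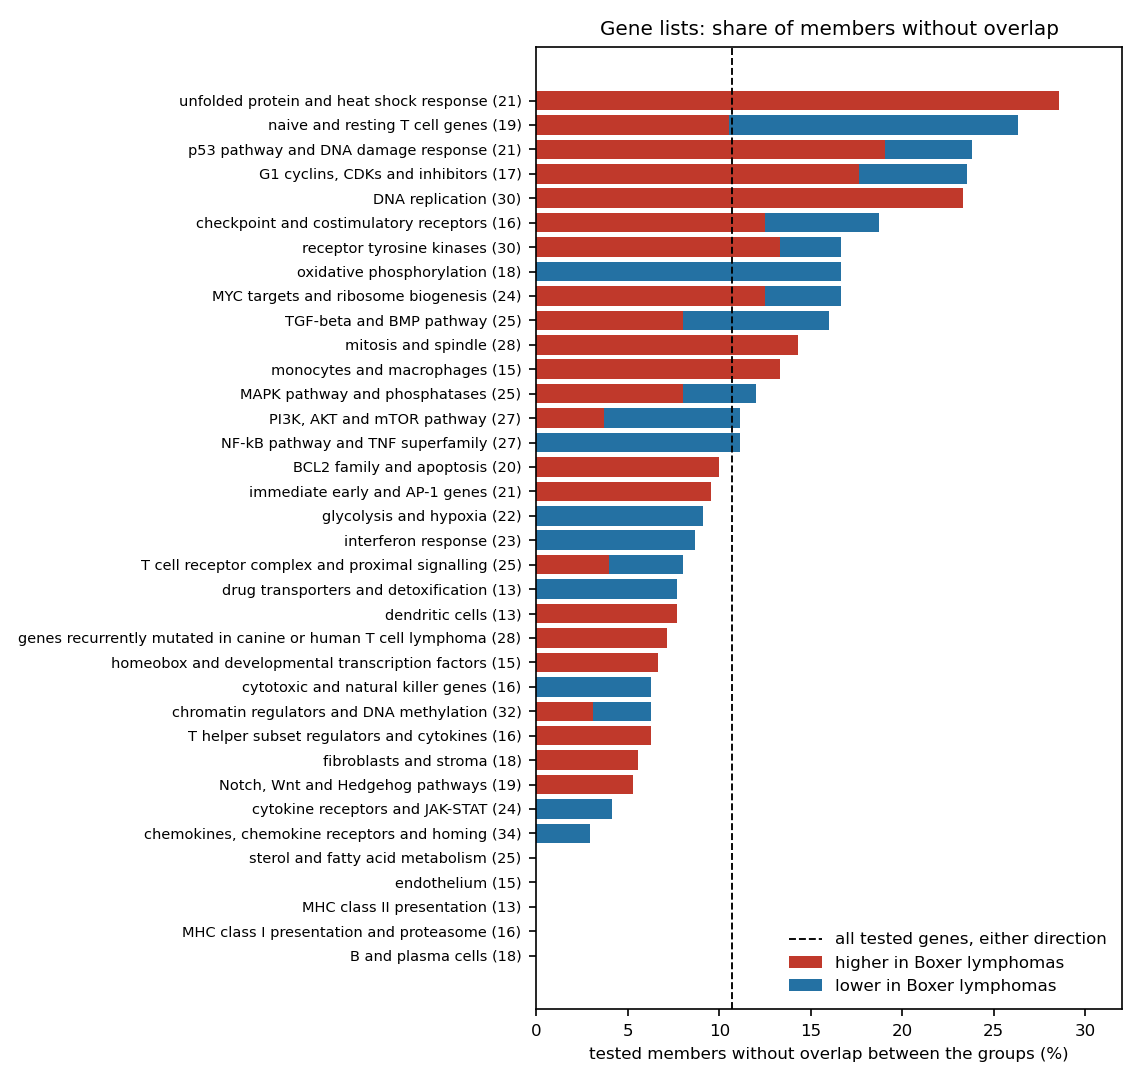
Share of tested members without overlap between Boxer and other-breed lymphomas (x axis, %) for each list with at least 13 tested members (rows, number tested in brackets), higher in Boxers in red and lower in blue. The dashed line marks 10.7%, the share of all tested genes, with the chaperone list highest at 28.6% and 5 lists at 0%.

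Large gene families held genes in both directions. Of 206 solute carriers 11 were higher and 12 lower (11.2%). SLC37A2, a sugar phosphate exchanger, was at 558, 126 and 180.1 in Boxer and 23.5, 33.1 and 68.99 in other-breed lymphomas, and SLC16A10, a carrier of aromatic amino acids, at 2307, 626 and 1511 in Boxer and 559, 175 and 353 in other-breed lymphomas. SLC9A9, an endosomal proton exchanger, was lower at 917, 1147 and 1003 in Boxer and 1941, 2455 and 1405 in other-breed lymphomas. Of 214 ZNF genes 9 were higher and 4 lower (6.07%). Of 44 receptors named GPR or ADGR 3 were higher and 5 lower (18.2%), among them ADGRL1, a latrophilin, at 1994, 1784 and 2055 in Boxer lymphomas, 3724, 3619 and 2762 in other-breed ones and 667, 1191 and 1169.7 in controls. Tripartite motif genes had 1 of 33 higher and 4 lower (15.2%). TRIM47, a ubiquitin ligase, was at 956, 552 and 1186 in Boxer lymphomas, 261, 69.4 and 184 in other-breed ones and 1.36, 5.78 and 0 in controls, almost silent in the controls. Of 29 collagens and laminins 25 were fitted above 0 (median log2 fold change 1.67). Scores over the family were 1.41, 1.27 and 2.30 in Boxers and -1.23, -1.61 and 2.70 in other breeds, so other-breed lymphoma 3 had the highest. The 1 member without overlap (3.45%) was lower. It was LAMA2, at 1425, 1122 and 905 in Boxer lymphomas, 3469.97, 4444 and 1627 in other-breed ones and 16.4, 0 and 12.97 in controls. SEMA4D, a semaphorin of T cells, was lower at 1881, 2355 and 2153 in Boxer lymphomas, 3461, 4140.1 and 3301 in other-breed ones and 3700.3, 4603 and 5106 in controls. Of 50 cytosolic ribosomal protein genes 1 was lower, RPL28 (2%), and of 61 mitochondrial ones 3 were higher and 3 lower (9.84%). Integrins had 2 of 23 higher (8.7%, against 10.7% over all genes), with ITGA6, the laminin receptor subunit, at 2569, 5399.99 and 1523 in Boxer and 1279, 311 and 1308 in other-breed lymphomas. Interleukins and their receptors had 2 of 46 lower, IL17RD and IL18RAP (4.35%). Protocadherins and cadherins (20 tested), ADAM proteases (25) and TNF superfamily genes (21) had 0 without overlap.

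Against the controls, the genes higher in Boxers were split by group. Boxer values lay above all 3 controls in 482 of 754 genes (63.9%), overlapped them in 200 and lay below in 72. Other-breed values of the same genes lay above in 245 (32.5%), overlapped in 317 and lay below in 192. Of the 861 genes lower in Boxers, Boxer values lay below the controls in 455 (52.8%) and above in 116, and other-breed values below in 207 (24%) and above in 322. Over all tested genes the Boxers were above the controls in 30.6% and below in 23.5%, and the other breeds in 25.9% and 20.8%. Both sets of positions use the same 3 controls, and the choice of genes fixes part of the difference between them.

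**Figure D5:**
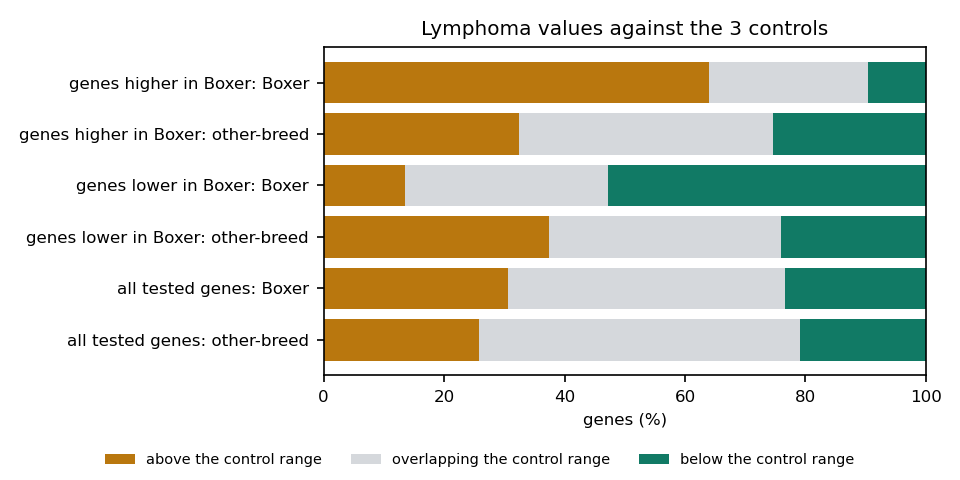
Share of genes (x axis, %) whose 3 lymphoma values lay above, overlapped or lay below the range of the 3 controls, for genes higher in Boxers, genes lower in Boxers and all tested genes (rows, Boxer and other-breed lymphomas apart). Genes higher in Boxers exceed the controls in 63.9% of cases in the Boxers and 32.5% in the other breeds.

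Features without a symbol gave the smallest p-values of all. The 4 named here were chosen after their values were seen, as the 2 with the smallest p in each direction. ENSCAFG00000002706 was at 128, 82.5 and 141 in Boxer lymphomas, 0, 0 and 0 in other-breed ones and 35.5, 35.5 and 15.7 in controls. With no reads in the other-breed libraries and 3 reads over that group as the floor, which covers counting error only, it was at least 119-fold higher in Boxers. Novel01344 was at 234, 247 and 219.7 in Boxer lymphomas, 16.5, 16.6 and 11.7 in other-breed ones and 21.8, 18.2 and 32.4 in controls, with Boxer values in a narrow range and the other libraries low. Novel02617 was at 5.95, 0 and 5.21 in Boxer lymphomas, 700.4, 1132 and 959 in other-breed ones and 46.4, 506 and 1027 in controls, and Novel02690 at 9.35, 0 and 1.04 in Boxer lymphomas, 573, 899.8 and 744 in other-breed ones and 64.2, 437 and 821 in controls. Both were near 0 in every Boxer, while control 1 was well below controls 2 and 3. All 4 had a limma adjusted p of 0.182. The deposited files pair no gene name with these identifiers.

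Few features were off in 1 lymphoma group and on in the other. The limits were at most 5 normalised reads in all 3 libraries of a group and at least 20 in all 3 of the other. By these limits 3 were on in Boxers (ROS1, GALNTL6 and ENSCAFG00000002706) and 4 in the other breeds, none of these 4 with a symbol. Identifiers of gene models absent from Ensembl made up 13.4% of the genes without overlap and 12.9% of all tested genes.

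Of the 102 DESeq2 calls 94 had no overlap between the groups. Of the 30 genes reported for the widest gaps or smallest p, 26 were among the calls. These 30 were picked on values of the same 6 libraries, so their presence among the calls adds no support. The lowest adjusted p with a symbol was that of ROS1 (DESeq2 adjusted p = 3.99e-07), followed by NFIL3 (1.45e-06). Over all alternatives the highest adjusted p was 0.967 for ROS1 and 0.999 for NFIL3. GALNTL6 received no adjusted p from DESeq2.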

How the data were processed

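Messenger RNA of 9 canine libraries was enriched with oligo(dT) beads and sequenced, per the labels' protocols. TopHat2, HTSeq, DESeq2 and the build CanFam3.1 are named in the submitters' processing notes, without versions. No source used here states the strandedness, so overlapping antisense genes may share reads. The deposited signal values are read counts that the authors scaled by a library factor, and whole reads were recovered from them (within 0.01 reads). Of 28008 features, 15112 reached a value of 10 in 3 or more of the 6 lymphoma libraries and were tested and 12896 were not.

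The 3 Boxer and 3 other-breed lymphomas were compared with limma 3.58.1 (R 4.3.3) on log2(value + 1), which understates changes of low genes, with a mean-variance trend and Benjamini-Hochberg adjustment at 0.05. edgeR 4.0.16 and DESeq2 1.42.0 on the recovered reads were alternatives. The scripts were tested on simulated data. Genes named without overlap are, per direction, the 12 with the widest gap and a mean of at least 50, the 8 with the smallest p, and up to 4 per list or family, plus 20 key genes. The genes, 43 lists and 22 families were chosen with earlier results of these data known. A few of the named genes are not reported here. Other scalings, pseudocounts, filters, covariates and left-out libraries were tried. The reference used here held no sequence, so none is printed.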

Additional observations from a re-analysis of the deposited data

How the results depend on the processing

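DESeq2 called 44 genes higher and 58 lower. A pseudocount of 5 gave 2 lower (Novel02617 and Novel02690), and 1 limma fit over all 9 libraries gave 2 higher (ENSCAFG00000002706 and Novel01344). Leaving out 1 library at a time gave 0 to 1 higher and 0 to 1 lower. The calls were ENSCAFG00000016065 lower without other-breed lymphoma 2, and CTNNA1 higher and ENSCAFG00000015116 lower without other-breed lymphoma 3. TMM or library total scaling, a pseudocount of 0.5, no filter, a filter at 50, edgeR, sex or age as a covariate, and leaving out other-breed lymphomas 1 and 2 together gave 0 calls in each direction, with 599 to 1064 genes at an unadjusted p under 0.05. With the replicate number as a block there were 0 higher and 0 lower calls and 736 genes at an unadjusted p under 0.05. The numbers share no stated source, the correlations of same-numbered deviations were -0.02, -0.06 and 0.12, and not every sample correlated best with its own number.

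Genes without overlap numbered 1404 to 2114 higher and 1467 to 1644 lower with 1 library left out, and 3436 higher and 3715 lower without other-breed lymphomas 1 and 2, since fewer samples overlap less often. Of the 754 and 861 genes, 737 and 821 were also without overlap under TMM and 650 and 708 under library totals. Among named genes, 8 log2 fold changes turned in sign under some setting. With 1 library left out they ranged from -0.22 (without Boxer lymphoma 2) to 0.56 for CCND2, from -1.55 to 0.54 (without Boxer lymphoma 2) for BCL2 and from -0.33 to 0.0093 (without other-breed lymphoma 1) for CD3E. CCR4 ranged from -0.37 to 1.24 and CCR9 from -0.17 to 0.89, both lowest without other-breed lymphoma 2, and IL2RA from -1.74 to 0.27 (without other-breed lymphoma 3). Without other-breed lymphomas 1 and 2 MYC was at 0.12 and NCAM1 at 1.28. CCR9 was at -0.0615 with edgeR and -0.0513 with DESeq2. The cause was not tested. All of these genes overlapped between the groups.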
